A study of Mus musculus with 22 samples.

Results

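The calpains are a family of calcium-dependent cysteine proteases of the cytosol, and 10 calpain genes (Capn1, Capn2, Capn5, Capn7, Capn8, Capn9, Capn10, Capn12, Capn13 and Capn15) were followed here through mouse intestinal organoids exposed to cold atmospheric plasma (CAP). They were picked by gene name from a table of 52636 genes that holds 13 catalytic calpain genes in all. The other 3 had lower values. Capn3, the muscle calpain, ranged from 27 to 83 over the 22 libraries, Capn6, which lacks the catalytic cysteine, from 0 to 20, and Capn11, known from testis, from 0 to 11, all in reads scaled to 20 M per library. Capn3 was at 10 or more in all 22 libraries and passed no test in any of the 12 comparisons made. Each of the 10 members passed the filter on low values in every comparison, and 9 of them were at 10 or more in all 22 libraries. The exception was Capn9, which reached 10 in 21.

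The study asked what a helium plasma jet, run at 50 W for 60 s, does to epithelial stem cells of the gut grown as organoids, which are small closed epithelia raised in gel from isolated crypts. The duodenal organoids came from adult wild type CD1 mice, an outbred stock, with 1 mouse per line, so that a line stands for 1 animal. Untreated organoids gave 4 libraries, from lines 1 to 4 (passages 12, 14, 4 and 4 by the labels), and each of 6 treated groups gave 3, from lines 1, 2 and 4. By the study's list, the lines at passages 12 and 14 came from male mice and those at lower passage from female mice. In direct CAP the jet was held over the culture at day 1, with fresh medium after 30 min or 24 h. Indirect CAP used the medium of a second, jet-treated culture, and plasma-activated medium (PAM) was exposed to the jet while it held no organoids. Organoids received either medium starting at day 1 or at day 2. The study's methods state 24 h of exposure for these 4 groups and an end at day 3, whereas the labels list 0.5 h for the day 1 groups and 24 h for the day 2 groups. When the 30 min group was collected is not certain from these sources.

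Calpains cut their substrates at few places, so that the product is often a protein with a changed function and not a degraded one. They act on the cytoskeleton, on cell adhesion and on cell death factors, and calcium entry after membrane damage is a classical trigger. The classical members (Capn1, Capn2, Capn8, Capn9, Capn12 and Capn13) end in a calcium-binding domain with EF hands, while the non-classical members (Capn5, Capn7, Capn10 and Capn15) carry other domains. Capn1 and Capn2 work as pairs with the small subunit Capns1, and calpastatin (Cast) is their dedicated inhibitor. In the gut, Capn8 and Capn9 are known from mucus-producing surface cells, mainly of the stomach.

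The shared active site shows what makes these genes a family. Each line gives the coding sequence around the catalytic cysteine, 5′ to 3′, from the longest protein-coding transcript of GENCODE vM21, with the cysteine codon in capitals.
Capn1: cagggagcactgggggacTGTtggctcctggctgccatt
Capn2: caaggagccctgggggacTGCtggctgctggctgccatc
Capn8: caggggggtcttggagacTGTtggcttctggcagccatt
Capn9: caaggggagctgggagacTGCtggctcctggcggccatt
Capn12: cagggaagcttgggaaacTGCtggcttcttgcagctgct
Capn13: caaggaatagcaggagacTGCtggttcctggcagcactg
Capn5: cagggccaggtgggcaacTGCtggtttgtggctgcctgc
Capn10: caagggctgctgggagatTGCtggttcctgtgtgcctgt
Capn15: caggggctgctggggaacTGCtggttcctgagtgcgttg
The cysteine is codon 115 in Capn1, 105 in Capn2, Capn8 and Capn12, 97 in Capn9, 91 in Capn13, 81 in Capn5, 73 in Capn10 and 628 in Capn15, which has a long stretch ahead of the protease core. The letters searched (glycine or threonine, aspartate or asparagine, cysteine, tryptophan or serine, phenylalanine or leucine) were found once in each of these genes and not in Capn7, for which no stretch is shown.

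Promoters of the members were searched for the letters of known sites. Of the 10 members, 9 had an entry among the RefSeq promoters of GRCm38.p6, which cover 250 bases before to 50 after a start site, and Capn5 had none. The letters TGANTCA, the site of the stress-responsive factor AP-1 (read on both strands, where they match themselves), were found in 3 of the 9. Each line below is a window of 100 bases on the gene's own strand, with those letters in capitals.
Capn2: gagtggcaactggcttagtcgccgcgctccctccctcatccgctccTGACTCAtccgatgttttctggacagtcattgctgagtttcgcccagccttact
Capn8: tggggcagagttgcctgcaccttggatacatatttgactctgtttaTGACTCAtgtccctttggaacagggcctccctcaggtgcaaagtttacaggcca
Capn12: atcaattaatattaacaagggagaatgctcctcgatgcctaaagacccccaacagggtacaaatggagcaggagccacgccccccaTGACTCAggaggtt
The windows lie at chr1:182517740-182517839 on the minus strand for Capn2, chr1:182564855-182564954 on the plus strand for Capn8 and chr7:28881586-28881685 on the plus strand for Capn12. Counted from the start site, the letters begin at base -183 in Capn2, -106 in Capn8 and 17 in Capn12. Over all 32807 promoters of that length, 7.82% held them. That share is per promoter, whereas 3 of the 9 counts genes, of which Capn1 and Capn15 have more than 1 promoter. Of the 3, Capn2 and Capn12 rose in some comparisons and Capn8 passed the main test in none. Of the other members that rose, Capn13 did not hold the letters and Capn5 had no entry. Whether they bear on the changes was not tested. Neither TGACNNNGC (the antioxidant response element, in 12.4% of promoters) nor GGAATG (the TEAD site, in 14.7%), searched on both strands, was found in the window of any member. A match describes letters and does not show that a factor bound. Capn2 and Capn8 are neighbours that point away from each other, with start sites 47.4 kb apart.

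Values are the authors' read counts scaled to 20 M per library. The study's legends define its unit as also divided by transcript length, but the deposited values of each library sum to between 20007540 and 20016513, and the spacing of low values, which length would change, gave the same depth within 1% for the shorter and the longer genes in 15 of 22 libraries (up to 11.1% apart in the others). They were therefore read as not divided by length, and every value per kb here depends on that. Depth, estimated from the spacing of low values, was between 20.3 and 28.7 M reads, and no library was a copy of another among the 231 pairs. The epithelial and duodenal markers were present in all libraries, and summed values of mesenchymal (4 to 30), endothelial (2 to 28) and immune (47 to 251) markers were low. Changes were tested with limma across all genes on log2(value + 1), and a gene is said to have risen or fallen only at a Benjamini-Hochberg adjusted p under 0.01. Libraries of the same line deviated together, but the untreated libraries of lines 1 and 2 resembled the treated libraries of each other's line more than of their own (median r 0.0751 and 0.132 with the own line, 0.541 and 0.353 with the other). Values without both are therefore given beside the calls. The main fit has no term for the line, so line labels exchanged among untreated libraries would not change its calls. Leaving both out keeps only lines 3 and 4 as untreated, which differ from lines 1 and 2 in passage and, by the study's list, in sex. Fewer genes of any kind then passed in each comparison with untreated organoids. In bulk RNA, a change in the share of a cell type and a change within cells cannot be told apart.

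In untreated organoids the family was led by Capn1. Per kb of the longest transcript, Capn1 stood at 872 ± 46.7 scaled reads (SD, n = 4), followed by Capn7 at 394 ± 19.2, Capn5 at 284 ± 20.4 and Capn15 at 237 ± 12.4. These 4 genes did not overlap with each other in any untreated library. Capn12 (207 ± 15.5) and Capn10 (191 ± 7.57) overlapped. Capn2 at 92.0 ± 56.9 had the widest spread, from 32.6 to 160, and could not be separated from Capn9 (91.3 ± 22.8) or Capn8 (48.8 ± 5.79). Capn13 was lowest at 25.0 ± 5.91. With all exons as the length, Capn9 came before Capn2 and the rest of the order was unchanged. Capn1 made up 35.7% ± 1.11 of the family sum, Capn2 3.75% ± 2.23.

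The order differed after PAM from day 1. Capn1 was still highest at 956 ± 58.9 per kb (SD, n = 3), Capn5 came next at 795 ± 149 and then Capn2 at 687 ± 247. The share of Capn2 in the family was 17.4% ± 4.64 and that of Capn5 20.4% ± 1.54, while Capn1 made up 24.8% ± 2.53. The family sum per kb was 2442 ± 84.5 in untreated organoids and 3877 ± 470 after PAM from day 1. All 3 libraries lay above all 4 untreated ones, as they did in each treated group but direct CAP for 30 min, where 2 of 3 did. Sums are given without a test because the members were chosen together.

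**Figure D1:**
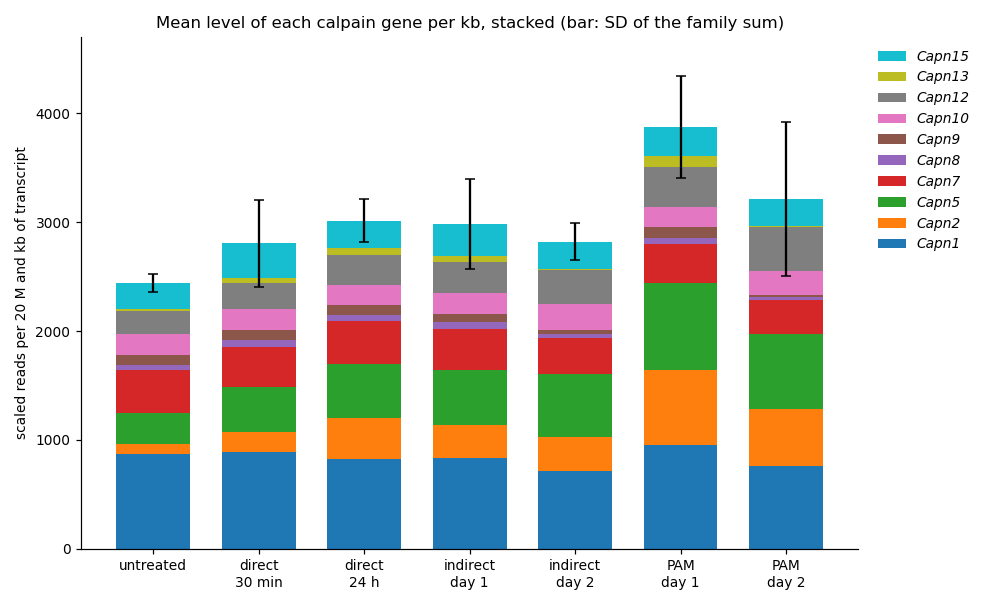
Mean level of the 10 calpain genes per kb of transcript (y axis, scaled reads per 20 M and kb), stacked for each group (x axis), with the SD of the family sum as the error bar (n = 4 untreated, 3 per treated group). Capn1 is of similar height in all bars, and the added height after PAM from day 1, where the sum was 3877 against 2442 untreated, lies mostly in Capn2 and Capn5.

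The 9 libraries of the groups that started at day 1 and ran for 24 h (direct CAP, indirect CAP and PAM) were pooled against the 4 untreated ones. The 9 came from lines 1, 2 and 4, with each line in every group, and the fit had no term for the line. They are thus not 9 independent samples, although the pooled p-values take them as such. In this comparison 4 of the 10 members rose and none fell. The background was 17.2% of 18490 genes called in either direction, and 8.39% called higher. The 4 were Capn2, Capn5, Capn12 and Capn13, which are also the calpains the study singled out from these libraries, so the count is no independent evidence of a direction. With the study's minimum of 1 on the log2 scale added, 3 of 10 remained (background 6.34%), Capn12 being below it. The median log2 fold change was 0.21 over the 10 members and -0.05 over all genes tested. Without both untreated libraries of lines 1 and 2, none of the 10 passed, and 1.12% of 18365 genes did. The log2 fold changes were then 1.51 for Capn2 (adjusted p = 0.107), 0.98 for Capn5 (0.0425), 0.64 for Capn12 (0.0241) and 1.39 for Capn13 (0.0677).

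**Figure D2:**
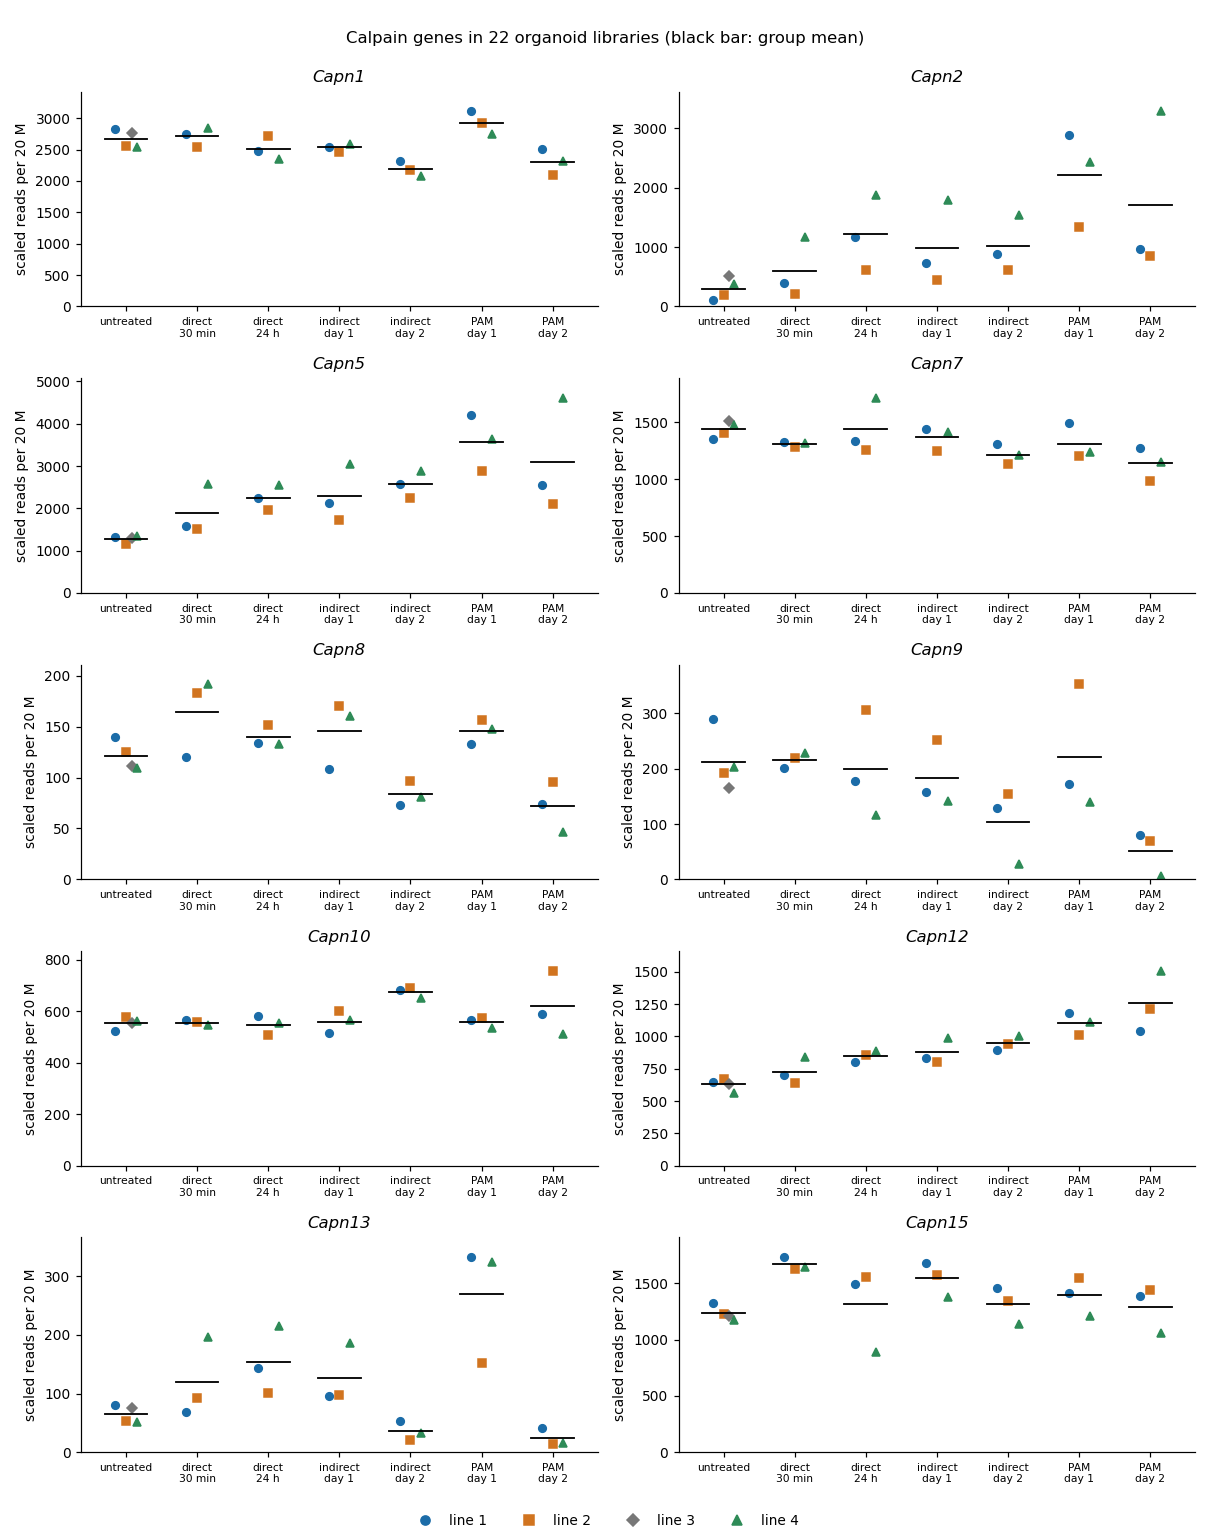
Values of the 10 members in each of the 22 libraries (y axis, scaled reads per 20 M, each panel from 0), by group (x axis), with the organoid line as colour and symbol and the group mean as a black bar. Capn2 is at 105 to 516 in untreated libraries and reaches 3286, while Capn1 stays between 2082 and 3111 in all 22.

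Capn1 (chr19:5988545-6015897, minus strand) encodes the large subunit of the calpain that needs least calcium, and it passed the main test in none of the comparisons. It was at 2821, 2560, 2759 and 2534 in the untreated libraries of lines 1 to 4. In the 9 libraries treated for 24 h from day 1 it ranged from 2350 to 3111 (median 2596). The groups overlapped, with a log2 fold change of -0.01 (SE 0.08, limma adjusted p = 0.943). After indirect CAP from day 2 it was at 2314, 2177 and 2082 in lines 1, 2 and 4, below every untreated library, with a log2 fold change of -0.28 (SE 0.07, adjusted p = 0.0139 by limma). With all 7 groups in one limma fit this change was called (adjusted p = 0.00764), where 24.7% of genes passed. That fit also called Capn1 lower for PAM from day 2 against day 1 (-0.34, adjusted p = 0.00709), where 10.2% passed.

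Capn2 (chr1:182467260-182517608, minus strand) encodes the partner enzyme that needs more calcium, and it had the largest rise in the family. It was at 105, 194, 516 and 372 in the untreated libraries of lines 1 to 4. PAM from day 1 gave 2884, 1335 and 2429 in lines 1, 2 and 4. Every PAM library lay above every untreated one. The log2 fold change was 3.07 (SE 0.52, adjusted p = 0.00229 by limma), and 4 of 10 members rose in that comparison, against a background of 25.1% called either way and 9.24% called higher. Leaving out line 4 of PAM gave an adjusted p of 0.0114, and without both untreated libraries of lines 1 and 2 the log2 fold change was 2.26 (adjusted p = 0.00742).

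The other modes gave Capn2 values of the same direction. After direct CAP for 24 h it was at 1171, 605 and 1876 in lines 1, 2 and 4, after indirect CAP from day 1 at 731, 446 and 1792, and after indirect CAP from day 2 at 881, 613 and 1546. PAM from day 2 gave 971, 842 and 3286, and direct CAP for 30 min gave 396, 209 and 1169. Only indirect CAP from day 1 and direct CAP for 30 min overlapped with the untreated range. In each line and each treated group, 18 of 18 libraries, Capn2 was above the untreated library of the same line. Line 4 was highest in 5 of the 6 treated groups and line 2 lowest in all 6.

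The Capn2 test differed when lines were compared with themselves. For direct CAP for 24 h the log2 fold change was 2.13 (limma adjusted p = 0.0343) and, with lines entered as a replicate block, 2.48 (0.00719). The blocked fit drops the untreated library of line 3, which has no treated counterpart, and pairs lines 1 and 2 with the untreated libraries that resembled each other's line. Blocking also brought Capn2 past the threshold after indirect CAP from day 1 (1.74, adjusted p = 0.0705, blocked 2.08, 0.0099), indirect CAP from day 2 (1.91, 0.0199, blocked 2.25, 0.00326) and PAM from day 2 (2.47, 0.0132, blocked 2.82, 0.00239). The blocked fits called 2.28% of genes for direct CAP for 24 h, 2.37% for indirect CAP from day 1, 18.3% for indirect CAP from day 2 and 19% for PAM from day 2. Without both of those untreated libraries (and no block), Capn2 passed in none of these 4 groups, at 1.33 for direct CAP for 24 h (adjusted p = 0.155), 0.93 for indirect CAP from day 1 (0.294), 1.1 with day 2 as its start (0.0733) and 1.66 for PAM from day 2 (0.0885). For indirect CAP from day 2, leaving out the untreated library of line 3 alone gave an adjusted p of 0.00982. Pooled over the 3 groups from day 1, the mean of Capn2 was 1474 ± 840 (SD, n = 9 libraries of lines 1, 2 and 4) against 297 ± 184 in untreated organoids (n = 4). The pooled log2 fold change was 2.31 (SE 0.50, adjusted p = 0.00349), with 8 of 9 treated libraries above all untreated ones. Without the untreated library of line 1 that adjusted p was 0.0183 and without that of line 2 it was 0.015.

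An annotated antisense gene, Gm37885, lies across 1717 exonic bases of Capn2, which are 27.1% of the exonic length of Capn2. Its value was 24.7% to 30.1% of that of Capn2 in the 22 libraries, and its log2 fold change after PAM from day 1 was 3.13 (adjusted p = 0.00183 by limma) and, without both untreated libraries of lines 1 and 2, 2.35 (0.00715). Whether the counting used strand is not given in the sources used here, so reads of Capn2 and Gm37885 in the shared stretch cannot be told apart.

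Capns1, needed by Capn1 and Capn2 for activity, was at 1815, 1711, 1985 and 1969 in untreated lines 1 to 4 and at 2703, 2384 and 2509 after PAM from day 1 in lines 1, 2 and 4. It rose there, by 0.44 on the log2 scale (SE 0.08, adjusted p = 0.00425 by limma, 0.0117 with the replicate block). Leaving out the untreated library of line 1 (0.0111) or line 2 (0.0132) or the PAM library of line 1 (0.0112) or line 4 (0.0172) took it out of the called range, as did leaving out both untreated libraries of lines 1 and 2 (0.35, adjusted p = 0.0417). In the other comparisons Capns1 did not pass. Its paralogue Capns2 was at 0 to 9 in all libraries.

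Cast, which blocks the paired calpains, rose in 3 of the 6 treated groups. It was at 1497, 1525, 2045 and 1608 in untreated lines 1 to 4 and at 4147, 3629 and 3976 after PAM from day 1 in lines 1, 2 and 4, a log2 fold change of 1.24 (SE 0.12, adjusted p = 0.000227 by limma). The groups were far apart. After indirect CAP from day 2 the log2 fold change was 0.66 (SE 0.13, adjusted p = 0.00398) and after PAM from day 2 it was 0.96 (SE 0.18, adjusted p = 0.00363), and in these groups, too, all treated libraries lay above all untreated ones. Both of these calls were lost when the untreated library of line 1, 2 or 4 was left out, with adjusted p-values of 0.0107 to 0.0135 for indirect CAP and 0.0121 to 0.013 for PAM, and the first also without the treated library of line 4 (0.0152). Without both untreated libraries of lines 1 and 2, Cast kept its call after PAM from day 1 (1.11, adjusted p = 0.00452) but not after indirect CAP (0.53, 0.0398) or PAM (0.83, 0.0491) from day 2. Cast shares 834 exonic bases with Erap1 on the opposite strand, and Erap1 moved the other way after PAM from day 1 (log2 fold change -0.67, adjusted p = 0.00143 by limma, and 0.0101 without both untreated libraries).

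Set against each other per kb within a library, the proportions of these genes lay outside those of untreated organoids in some treated groups and overlapped with them in others. Capn2 was 0.106 ± 0.0642 of Capn1 in untreated organoids (SD, n = 4), 0.472 ± 0.274 after direct CAP for 24 h, 0.717 ± 0.246 after PAM from day 1 and 0.697 ± 0.56 after PAM from day 2 (n = 3 each). The last value ranged from 0.368 to 1.34, where line 4 held more Capn2 than Capn1 per kb of the longest transcript. With all exons as the length, line 4 held less Capn2 than Capn1. The mean ratios were then 0.0589 in untreated organoids, 0.262 after direct CAP for 24 h, 0.398 after PAM from day 1 and 0.387 after PAM from day 2. Capn2 over Capn1 overlapped with untreated organoids in 2 groups. After direct CAP for 30 min 1 of 3 libraries lay above all untreated ones, and after indirect CAP from day 1 2 of 3 did. Cast was 0.336 ± 0.0289 of the sum of Capn1 and Capn2 in untreated organoids and 0.372 ± 0.038 after direct CAP for 30 min. In the other treated groups its mean lay between 0.423 and 0.512, with all libraries above the untreated ones. With all exons as the length, the mean was 0.172 in untreated organoids and between 0.235 and 0.301 in these groups.

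**Figure D3:**
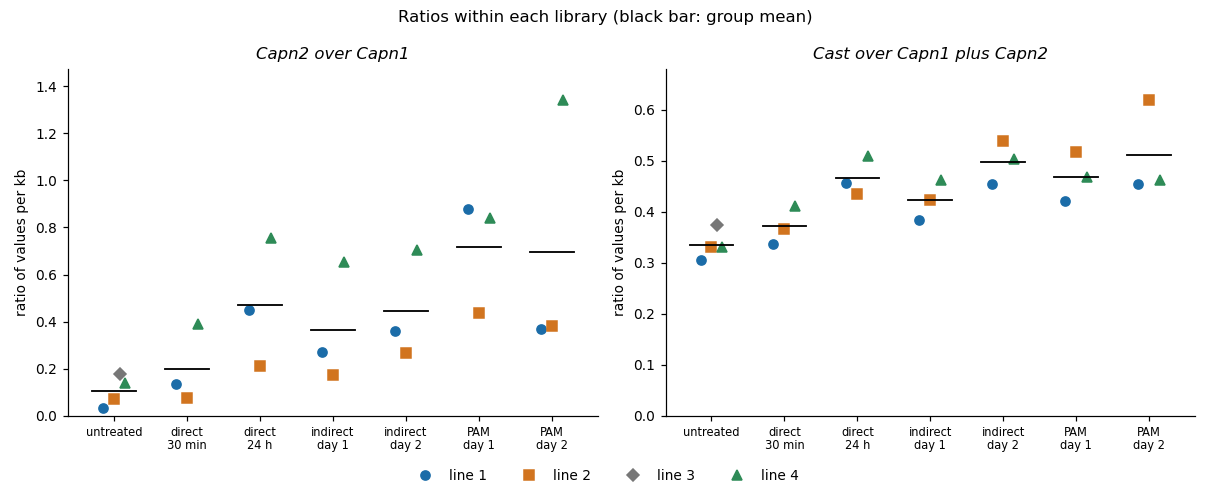
Ratio of the values per kb of the longest transcript within each library (y axis, no unit) for Capn2 over Capn1 and for Cast over the sum of Capn1 and Capn2, by group (x axis), with the line as colour and symbol and the group mean as a black bar. Capn2 over Capn1 has a mean of 0.106 in untreated organoids and 0.717 after PAM from day 1, and Cast over its targets 0.336 and 0.469.

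Capn8 (chr1:182565007-182632352, plus strand) and Capn9 (chr8:124576111-124618731, plus strand), the pair known from mucous surface cells, did not pass the main test in any comparison, and their lowest values were found with medium from day 2. Capn8 was at 140, 125, 111 and 109 in untreated lines 1 to 4, and at 133, 157 and 148 after PAM from day 1 in lines 1, 2 and 4. With PAM from day 2 it was at 74, 96 and 47, and after indirect CAP from day 2 at 73, 97 and 81. All 6 of these libraries lay below all untreated ones. The log2 fold changes were -0.79 (SE 0.26, adjusted p = 0.0344) and -0.53 (SE 0.17, adjusted p = 0.0306 by limma).

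Capn9 was at 289, 193, 166 and 203 in untreated lines 1 to 4. With PAM from day 2 it was at 81, 69 and 6 in lines 1, 2 and 4, and after indirect CAP from day 2 at 129, 154 and 27. Line 4 was the lowest in both groups. The log2 fold changes were -2.61 (SE 0.78, adjusted p = 0.0254) and -1.34 (SE 0.54, adjusted p = 0.0761 by limma). Without line 4, whose value of 6 is under the minimum of 10 used as the filter, the PAM change was -1.47 (SE 0.24, adjusted p = 0.0024).

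Summed markers of other cell types are given beside these values. The summed value of the 5 goblet cell markers was between 75087 and 132424 in untreated libraries, between 81067 and 182277 after PAM from day 1 and between 17630 and 46941 after PAM from day 2. Of the 5, Fcgbp fell after PAM from day 2, by 1.64 on the log2 scale (adjusted p = 0.00672 by limma), and the others did not pass, while 2 of 5 rose after PAM from day 1. After indirect CAP from day 2 the goblet sum was between 58608 and 90139. The 6 markers of gastric mucous cells summed to between 128 and 3488 in untreated libraries, to between 4331 and 19340 after PAM from day 1 and to between 830 and 4567 after PAM from day 2, which overlaps the untreated sums, with Muc6 higher in the last (log2 fold change 2.48, adjusted p = 0.000593). After indirect CAP from day 2 that sum was between 826 and 4869. There 1 of 5 tested gastric mucous markers was higher, a call kept without both untreated libraries of lines 1 and 2. The 3 tuft cell markers summed to between 84 and 133 in untreated libraries, to between 41 and 72 after indirect CAP from day 2 and to between 38 and 68 after PAM from day 2, where 1 of the 2 tested fell. Without both untreated libraries of lines 1 and 2, the calls of Fcgbp (0.0524), Muc6 (0.0149) and the tuft marker after PAM from day 2 and the 2 goblet calls after PAM from day 1 were lost. None of these lists was at 0 in any group, and their part in the values of Capn8, Capn9 and Capn13 was not tested.

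Capn12 (chr7:28881422-28893563, plus strand) is known mainly from skin and hair follicles. It was at 650, 670, 633 and 562 in untreated lines 1 to 4. After PAM from day 2 it was at 1045, 1213 and 1509 in lines 1, 2 and 4, after PAM from day 1 at 1184, 1007 and 1108, and after indirect CAP from day 2 at 896, 939 and 1005. No treated library of these groups came near the untreated range. The log2 fold changes were 0.98 (SE 0.14, adjusted p = 0.0011), 0.81 (SE 0.10, adjusted p = 0.000535) and 0.59 (SE 0.09, adjusted p = 0.00125 by limma), and each call held when any one library was left out. With the replicate block the last had an adjusted p of 0.0114. Without both untreated libraries of lines 1 and 2 the call after PAM from day 2 was lost (1.06, adjusted p = 0.0172), in a fit where 0.00583% of 17146 genes passed, while those of the other groups remained (PAM from day 1 at 0.00648, indirect CAP at 0.00788). Direct CAP for 24 h (803, 856 and 890) and indirect CAP from day 1 (835, 802 and 990) also lay above all untreated libraries without passing, with log2 fold changes of 0.44 (adjusted p = 0.0197) and 0.47 (adjusted p = 0.0191).

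The 3′ end of Capn12 and that of Actn4, an actin cross-linker on the opposite strand, share 316 exonic bases, 6.62% of the exonic length of Capn12. Actn4 was far more abundant, at 12110 to 12535 in untreated libraries, and rose as well, by 0.69 on the log2 scale after PAM from day 1 (adjusted p = 0.000813) and by 0.68 after PAM from day 2 (adjusted p = 0.00489 by limma), calls that were lost without both untreated libraries of lines 1 and 2 (0.0134 and 0.0532). Gm44700, an antisense gene with 203 shared bases, was at 0 or 1 in untreated libraries and at 12 to 39 after PAM from day 2. What share of the Capn12 reads came from these genes was not tested.

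Capn13 (chr17:73306464-73400866, minus strand), a classical calpain whose role is little known, had values on opposite sides of the untreated range after PAM from day 1 and from day 2. It was at 81, 53, 76 and 51 in untreated lines 1 to 4. After PAM from day 1 it was at 333, 152 and 324 in lines 1, 2 and 4, a log2 fold change of 1.98 (SE 0.31, adjusted p = 0.0017 by limma). With PAM from day 2 it was at 42, 14 and 15, a log2 fold change of -1.58 (SE 0.40, adjusted p = 0.0137). All PAM libraries from day 1 lay above, and all from day 2 below, every untreated library, but only the first passed the test. Without the line 1 library of PAM from day 2 the change was -2.07 (adjusted p = 0.00173). The rise after PAM from day 1 held when any one library was left out and had an adjusted p of 0.0158 without both untreated libraries of lines 1 and 2.

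Among the 9 libraries treated for 24 h from day 1, Capn13 lay above all untreated libraries in all 9, with a lowest value of 95, a pattern found in 7.16% of genes. The pooled log2 fold change was 1.35 (SE 0.33, adjusted p = 0.00738 by limma), in the fit that takes the 9 libraries as independent. Of 13 fits with 1 library removed, 9 lost this call. The libraries were the untreated libraries of lines 1 to 4 (adjusted p = 0.0151, 0.0279, 0.0152 and 0.0287), direct CAP for 24 h of lines 1 and 4 (0.0102 and 0.0114), indirect CAP from day 1 of line 4 (0.0134) and PAM from day 1 of lines 2 and 4 (0.0115 and 0.0102). Quantile normalization gave an adjusted p of 0.0123.

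Capn5 (chr7:98121559-98178274, minus strand), a non-classical calpain without EF hands, passed the test in more groups than any other member. It was at 1326, 1147, 1286 and 1354 in untreated lines 1 to 4, a narrow range. After PAM from day 1 it was at 4207, 2876 and 3644 in lines 1, 2 and 4, with a log2 fold change of 1.47 (SE 0.13, adjusted p = 0.000182 by limma). After indirect CAP from day 2 it was at 2570, 2253 and 2890 (1.0, SE 0.10, adjusted p = 0.000191). Both calls held when any one library was left out and without both untreated libraries of lines 1 and 2 (adjusted p = 0.0043 and 0.00399). In all 18 treated libraries Capn5 was above every untreated library, the lowest being 1501 after direct CAP for 30 min.

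The other calls for Capn5 were lost when single libraries were left out. After PAM from day 2 it was at 2558, 2112 and 4617 in lines 1, 2 and 4 (1.19, SE 0.24, adjusted p = 0.00472 by limma). After direct CAP for 24 h it was at 2254, 1952 and 2545 (0.81, SE 0.11, adjusted p = 0.00444), the 1 member of 10 called there against a background of 4.07% called either way and 1.87% called higher. The first was lost without any 1 of the 4 untreated libraries (adjusted p = 0.0127 to 0.0161). The second was lost without any 1 of the untreated libraries (0.0126 to 0.0155), and without the treated library of line 1 (0.0205) or line 4 (0.0101). With neither of the untreated lines 1 and 2, they had adjusted p-values of 0.0514 and 0.0577, in fits where 0.00583% of 17146 genes and 0% of 16894 passed, so these losses are not particular to Capn5. Indirect CAP from day 1 (2115, 1713 and 3037, log2 fold change 0.80) missed the threshold at an adjusted p of 0.0181, and no member was called there (background 2.96%), while 5 of 10 had an unadjusted p under 0.05 (background 38.6%).

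Of the other non-classical members, Capn7 (chr14:31336638-31371986, plus strand), which works with the membrane-sorting machinery, was at 1356 to 1511 in untreated libraries and at 988 to 1717 in treated ones. Capn10 (chr1:92934376-92947941, plus strand), known from diabetes genetics, was at 525 to 577 in untreated libraries and at 507 to 758 in treated ones. Neither passed the test in any comparison. The log2 fold changes nearest to it were 0.28 for Capn10 after indirect CAP from day 2 (SE 0.08, adjusted p = 0.0172, all 3 libraries above untreated) and -0.34 for Capn7 after PAM from day 2 (SE 0.11, adjusted p = 0.0306 by limma, all 3 below). For Capn10 that adjusted p was 0.00389 after quantile normalization. It shares 639 exonic bases (14.7%) with the antisense gene 9430060I03Rik.

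Capn15 (chr17:25958364-25985796, minus strand), a large zinc-finger calpain, was the member with the smallest p after direct CAP for 30 min. It was at 1326, 1232, 1206 and 1176 in untreated lines 1 to 4 and at 1735, 1629 and 1644 in treated lines 1, 2 and 4, so the groups did not overlap. The log2 fold change was 0.44 (SE 0.07) with an unadjusted p of 0.000258 and a limma adjusted p of 0.1. No member was called in that comparison, where 0.00564% of 17731 genes were. At an unadjusted p under 0.05 it was 2 of 10 members, Capn5 and Capn15, and 24.9% of genes. After direct CAP for 24 h Capn15 was at 1492, 1560 and 892, which spans the untreated range. It shares 1105 exonic bases (19.3%) with the antisense gene D630044L22Rik.

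**Figure D4:**
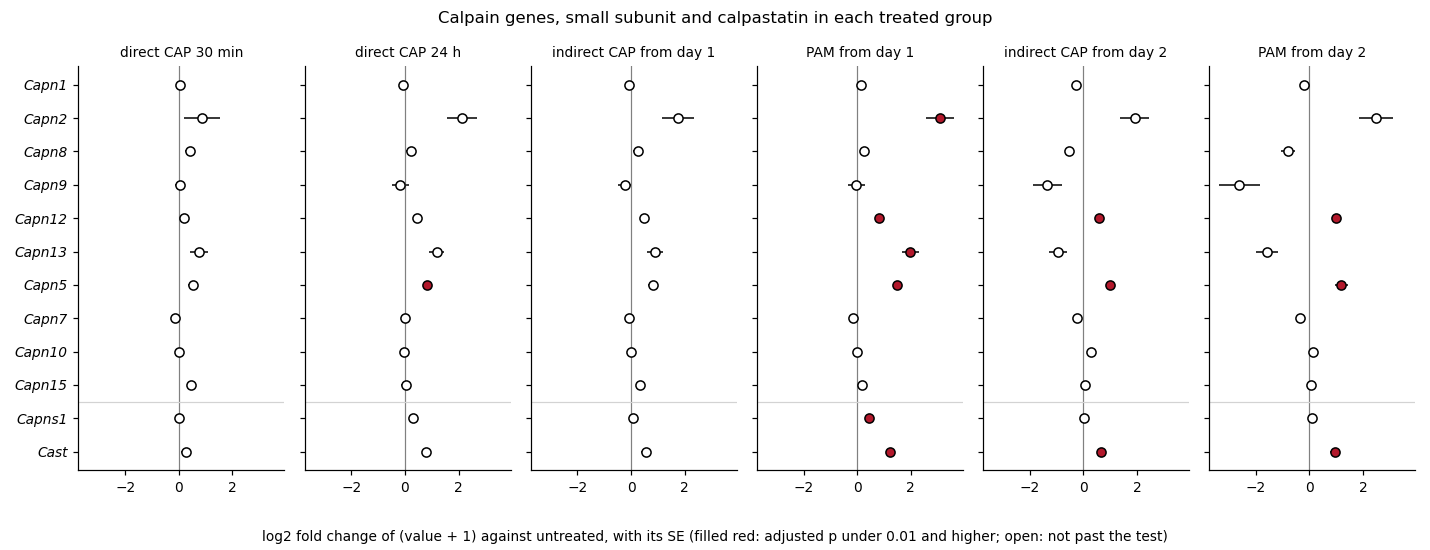
Log2 fold change of value + 1 against untreated organoids, with its SE (x axis), for the 10 members, Capns1 and Cast (y axis) in the 6 treated groups, where red marks an adjusted p under 0.01 by limma. Capn5 is red in 4 groups, Capn12 in 3 and Cast in 3, and Capn2, Capn13 and Capns1 in PAM from day 1, where Capn2 reaches 3.07.

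Counted by overlap alone, more members lay outside the untreated range with medium from day 2 than from day 1, and so did a larger share of all genes. Members lay on both sides of that range with medium from day 2 and after direct CAP for 30 min. All treated libraries lay above all untreated ones for 2 of 10 members after direct CAP for 30 min, and for 4 members each in direct CAP for 24 h, both indirect groups and PAM from day 1. For PAM from day 2 it was 3. The shares over all genes were 12.4%, 11.6%, 16.7%, 22.7%, 17.1% and 20.7% in that order. All lay below for 1 member after direct CAP for 30 min (Capn7, background 11.2%), for 4 after indirect CAP from day 2 (Capn1, Capn7, Capn8 and Capn9, background 25.8%) and for 5 after PAM from day 2 (the same 4 and Capn13, background 32.6%). They did so for none in the other 3 groups, direct CAP for 24 h (background 19.1%) and the media from day 1 (17.7% for indirect CAP, 29.7% for PAM).

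After indirect CAP from day 2, 2 of 10 members rose (Capn5 and Capn12, background 26.7% called either way and 11.6% called higher), and after PAM from day 2 the same 2 did (background 28.9% and 10.7%). The median log2 fold change was -0.08 over the members in both, and -0.01 and -0.12 over all genes. With the study's fold minimum 1 member of 10 passed in each (background 11.9% and 17.3%), and for direct CAP for 24 h none did (2.17%). At an adjusted p under 0.05 the counts were 7 and 7 of 10 for the day 2 groups (background 43.8% and 47.6%), 4 for direct CAP for 24 h (17.3%) and 3 for indirect CAP from day 1 (20.6%). Fitting all 7 groups together, which shares their spread, gave 6 calls after PAM from day 2, with Capn2 higher and Capn8 (adjusted p = 0.00578), Capn9 (0.00361) and Capn13 (0.00661) lower beside Capn5 and Capn12. That fit called 38.7% of 19370 genes, 2882 higher and 4610 lower.

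Set directly against day 1, no member passed in either medium, nor did any other gene for PAM (0% called of 17354), while 0.0111% of genes passed for indirect CAP. At an unadjusted p under 0.05, 4 of 10 members passed in each, against 26.8% of genes for PAM and 21.7% for indirect CAP. All day 2 libraries lay below all day 1 libraries for 4 members with PAM (Capn1, Capn8, Capn9 and Capn13, background 16.9%) and for 3 with indirect CAP (Capn1, Capn8 and Capn13, background 14.7%). Capn13 went from 333 to 42 in line 1, from 152 to 14 in line 2 and from 324 to 15 in line 4 between PAM from day 1 and from day 2. The log2 difference was -3.55 (SE 0.50, adjusted p = 0.0503 by limma, 0.0198 with the replicate block), and it was past the threshold with all 7 groups in one fit (0.000154), where 10.2% of genes passed. For indirect CAP, Capn13 went from 95 to 54, from 97 to 20 and from 187 to 32, a log2 difference of -1.85 (adjusted p = 0.0647, blocked 0.00186).

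The same comparison within lines gave lower Capn8 and Capn9 at day 2 in every pair, as it did for Capn13, Capn1, Capn7 and Capn15. For Capn1, Capn7 and Capn15 the log2 differences lay between -0.47 and -0.03. The share of all genes that were lower in every pair was not computed. Capn8 went from 133 to 74, from 157 to 96 and from 148 to 47 with PAM in lines 1, 2 and 4, a log2 difference of -1.06 (adjusted p = 0.0822 by limma, blocked 0.0551). With indirect CAP the log2 difference of Capn8 was -0.78 (adjusted p = 0.104, blocked 0.00544), where 11.8% of 17987 genes passed the blocked fit. Capn9 differed by -2.59 with PAM (adjusted p = 0.141, blocked 0.057) and by -1.11 with indirect CAP (0.365, blocked 0.0299). Between PAM from day 1 and from day 2, Capn2, Capn5 and Capn12 moved in different directions among the lines. Capn2 went from 2884 to 971 in line 1 and from 2429 to 3286 in line 4. With indirect CAP, Capn2 and Capn5 were higher at day 2 in 2 of 3 lines, and Capn12 was higher in all 3, by 0.10, 0.23 and 0.02 on the log2 scale in lines 1, 2 and 4.

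**Figure D5:**
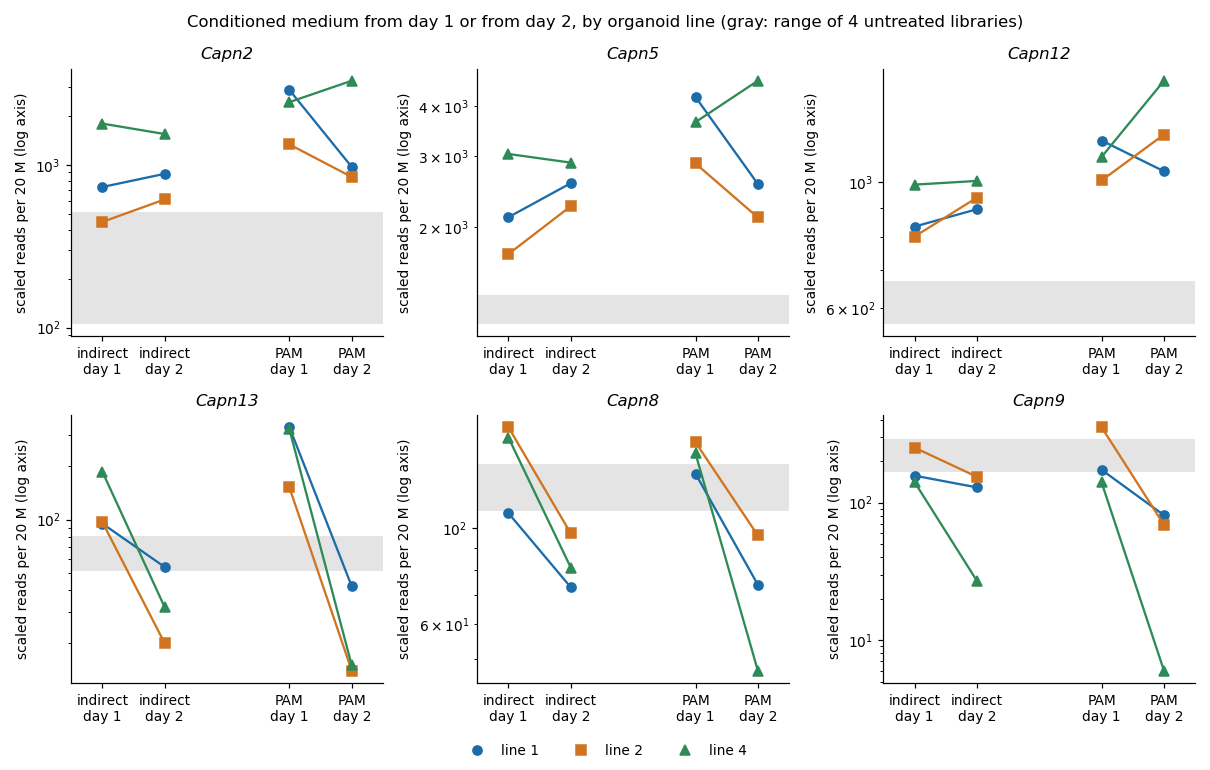
Values (y axis, scaled reads per 20 M on a log axis) after medium given from day 1 and from day 2 (x axis), joined within each organoid line, for indirect CAP and PAM, with the range of the 4 untreated libraries in gray. Of the genes drawn, Capn13, Capn8 and Capn9 are lower at day 2 in all 6 pairs, as for Capn13 in line 4 with PAM (324 to 15). Capn1, Capn7 and Capn15, which are not drawn, are lower in all 6 as well. With PAM, Capn2, Capn5 and Capn12 go up in some lines and down in others.

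Among the treatments from day 1, no member passed by limma between PAM and direct CAP for 24 h or between indirect and direct CAP, and none did between direct CAP for 24 h and for 30 min, comparisons in which 0% of genes passed. At an unadjusted p under 0.05, 2 of 10 members passed for the first (background 10.4%) and 0 for the others (6.95% and 21.4%). PAM from day 1 against direct CAP gave 0.94 for Capn2 (adjusted p = 0.496), 0.66 for Capn5 (0.356) and 0.37 for Capn12 (0.411 by limma). For Capn1, Capn5 and Capn12 all 3 PAM libraries lay above all 3 direct ones, a pattern found in 5.68% of 17072 genes. With the replicate block, Capn2 was higher after direct CAP for 24 h than for 30 min by 1.26 (adjusted p = 0.00757), in a fit where 1.52% of 17668 genes passed. Its value went from 396 to 1171 in line 1, from 209 to 605 in line 2 and from 1169 to 1876 in line 4.

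Known calpain substrates were followed as a list of 15 genes, chosen with earlier results of these data known. Over the 9 libraries pooled from day 1, 3 of 15 rose and none fell. These were Ezr (1.09, SE 0.17, adjusted p = 0.000651), which ties actin to the membrane, Cttn (0.60, SE 0.13, adjusted p = 0.0033), which binds branched actin, and Pxn (0.36, SE 0.08, adjusted p = 0.00415 by limma), an adaptor of focal adhesions, and 17.2% of all genes were called. The median over the list was 0.30 against -0.05 for all genes. The same counts were 6 higher after PAM from day 1 (background 25.1% called either way), 6 higher and 1 lower after indirect CAP from day 2 (26.7%) and 6 higher and 1 lower after PAM from day 2 (28.9%), the lower ones being Vim (-1.43, adjusted p = 0.00421) after indirect CAP and Ptpn1 (-0.46, adjusted p = 0.00398) after PAM. Sptan1, the best-known calpain target in the membrane skeleton, had a pooled log2 fold change of 0.01 (adjusted p = 0.965) and rose after PAM from day 2 (0.60, adjusted p = 0.00645). In direct CAP for 24 h (background 4.07%) and indirect CAP from day 1 (2.96%) 1 of 15 rose each, and in direct CAP for 30 min none passed. Leaving out both untreated libraries of lines 1 and 2 left 2 of 15 called after PAM from day 1, 2 after indirect CAP from day 2, and none in the other groups or the pooled comparison. RNA levels do not show whether a substrate was cut.

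For the 4 calpains that rose, the genes of most similar profile were sought among 19370 genes by Pearson's r of the log2 values over the 22 libraries, which share lines and controls. Capn2 was followed by Gm37885 (r = 0.999), Nbl1 (0.984) and Ildr1 (0.98). Capn5 was followed by Cttn (0.975) and Ezr (0.974), which also rose in the pooled comparison. Capn12 was followed by Itga3 (0.963), Arhgap27 (0.958) and A930005N03Rik (0.956), and Capn13 by Gcc2 (0.952), Mansc1 (0.944) and Inpp4b (0.941). None of the 3 closest genes of any of these 4 was another calpain. Between members, r was 0.93 for Capn2 with Capn5, 0.90 for Capn5 with Capn12 and 0.81 for Capn2 with Capn12. For Capn13 it was 0.22 with Capn2, 0.17 with Capn5 and -0.14 with Capn12.

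The summed stem cell markers were lower in every treated group, whether or not a calpain was called there. The sum of Lgr5, Olfm4, Smoc2 and Ascl2 was between 28399 and 33368 in untreated libraries, between 4515 and 8518 after direct CAP for 24 h, between 770 and 1998 after PAM from day 1 and between 650 and 1925 after PAM from day 2. It was between 1951 and 2662 after indirect CAP from day 2. Where no calpain was called it was lower too, between 4840 and 12267 after indirect CAP from day 1 and between 17213 and 26825 after direct CAP for 30 min. Of the 4 markers, 2 fell after indirect CAP from day 1 (neither without both untreated libraries of lines 1 and 2). After direct CAP for 30 min none passed the test. All 4 stem cell markers fell after PAM from day 1, also without both untreated libraries of lines 1 and 2. Enterocyte markers summed to between 87297 and 105791 in untreated libraries and between 68082 and 139003 after PAM from day 1, with none of 6 past the test. After PAM from day 2 that sum was between 133155 and 171905, above all untreated libraries, with 1 of 6 higher, a call lost without both untreated libraries. The 4 Paneth cell markers summed to between 20896 and 29593 in untreated libraries, to between 3648 and 15499 after PAM from day 1, where 2 fell (neither without both untreated libraries), and to between 3686 and 16554 after PAM from day 2, where none passed. The part of a changed cell makeup in the values of Capn2, Capn5, Capn12 and Capn13 was not tested.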

How the data were processed

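RNA-seq of 22 organoid libraries was analysed. Per the labels and the study's methods, the authors trimmed paired-end reads of 100 bases with Trimmomatic 0.36, aligned them to GRCm38 with STAR 2.5.3a and counted them per gene with HTSeq 0.9.1 (versions from the submitters' processing notes). Each deposited value is a score, that is, a read count the authors scaled to 20 M reads per library and rounded up. Raw counts were not used here, so the count test of the study was not run.

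The main test was run on log2(value + 1), with limma 3.58.1 in R 4.3.3 (trended moderated test, Benjamini-Hochberg over all genes tested), over genes at 10 or more in at least 3 libraries of a fit, with only the groups compared in it. A call is an adjusted p under 0.01, the study's false discovery rate. The scripts were tested on simulated data. Figures were drawn with Python 3.11.15 and matplotlib 3.10.9. Gene positions came from GENCODE vM21, which held 52489 of the genes, promoters from RefSeq.

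Groups and lines came from the labels. Libraries of the same line share a mouse. After group means were removed, 60 of 63 same-line pairs correlated above 0.1 (median r 0.536, against -0.306 between lines), and an alternative fit therefore blocked by line (replicate block). The labels say no more about the cultures, so p-values measure only the spread among these libraries, which may be technical in part. Alternatives were a pseudocount of 10, no filter, the replicate block, quantile normalization, a single fit of all 7 groups, each library left out in turn and the thresholds of the study and of 0.05. Members, gene lists and named genes (all members, partners, substrates, overlapping genes and the 3 most similar genes of 4 members) were chosen with earlier results of these data known. Of the similar genes, 1 is not reported here. The alternative without both untreated libraries of lines 1 and 2 was chosen after seeing the data.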

Additional observations from a re-analysis of the deposited data

Results flagged for a closer look

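Capn13 was picked out because its values after PAM from day 1 and from day 2 lay on opposite sides of the untreated range. Its log2 difference between PAM from day 2 and PAM from day 1 was -3.55. Every library of PAM from day 1 (152 to 333) lay above the untreated range of 51 to 81, and every library of PAM from day 2 (14 to 42) lay below it. The difference itself was tested with limma, at an adjusted p of 0.0503, and of 0.0198 with the replicate block, so it did not pass 0.01, nor did the lower level after PAM from day 2 against untreated (adjusted p = 0.0137). After indirect CAP from day 2, Capn13 was at 54, 20 and 32 in lines 1, 2 and 4, which overlaps the untreated range. The day on which medium was given and the time from then to collection cannot be told apart.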

How the results depend on the processing

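The count of calpain genes past the test was recomputed for 12 comparisons under each alternative. For the 3 groups from day 1 pooled (4 called), it was 0 without both untreated libraries of lines 1 and 2, and 2 to 4 when 1 library was left out. For direct CAP for 24 h (1 called), it was 2 with the replicate block, 4 at an adjusted p under 0.05, and 0 with all 7 groups in one fit, without both untreated libraries, and with the study's minimum fold change. It was 0 to 1 when 1 library was left out, as it was 3 to 4 for PAM from day 1 (4 called) and 2 to 3 for indirect CAP from day 2. For indirect CAP from day 1 (0 called), it was 1 with the replicate block and 3 at an adjusted p under 0.05. For indirect CAP from day 2 (2 called), it was 1 with the minimum fold change and 7 at an adjusted p under 0.05. For PAM from day 2 (2 called), it was 6 with all 7 groups in one fit, 0 without both untreated libraries, 1 with the minimum fold change and 7 at an adjusted p under 0.05, and 1 to 3 when 1 library was left out. For direct CAP for 24 h against 30 min (0 called), it was 1 with the replicate block. For indirect CAP from day 2 against day 1 (0 called), it was 2 with the replicate block, and for PAM from day 2 against day 1 (0 called) it was 3 with all 7 groups in one fit. The other 147 of these recomputed counts stayed within 1.5 times. Where a count changed, the cause was not tested. Of the log2 fold changes of single members, 0 reversed a call under any alternative. Quantile normalization moved the median of all genes by 0.118 on the log2 scale after PAM from day 2 and by less elsewhere, and turned the sign of no called member. Beside the calls counted, the replicate block took Capn12 after indirect CAP from day 2 (adjusted p = 0.0114) and Capns1 after PAM from day 1 (0.0117) out of the called range and brought Capn2 in for both media from day 2 (indirect CAP 0.00326, PAM 0.00239). It changed no other call of a member, Capns1 or Cast. With both untreated libraries left out, few genes of any kind passed for the pooled comparison (1.12%), direct CAP for 24 h (0%) or PAM from day 2 (0.00583%).

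Counting error was largest for Capn9 and Capn13 after PAM from day 2, where values of 6 to 81 rest on about as many reads.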
